A study of Homo sapiens with 33 samples.

Results

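The DUX4 and USP17 genes of the human genome were followed through the promoter chromatin and RNA of EZH2-deficient ESCs. Members were all windows and genes whose name begins with DUX4 or USP17L, which gave 37 of 153958 windows of 5 kb centred on transcription start sites, at 35 gene names, and 35 of 35805 genes in the RNA table. They comprised DUX4, 8 DUX4L copies and 26 USP17L genes. The gene names were chosen by H3K27me3 values of these data, as promoters that kept ChIP signal in null cells. The H3K27me3 values that follow therefore describe that choice and carry no test. By ChIP-seq the paper reports H3K27me3 lost from every promoter of null cells, and by immunofluorescence at background. It found no EZH2, SUZ12 or main EED isoform there by western blot. Whether the null signal given here is the mark or background was not tested.

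The cells were SSEA4-positive sorted H9 human ESCs of 4 genotypes. They were EZH2+/+ (WT), EZH2-/+ (Het), EZH2-/- (Null) and EZH2-/-+EZH2 (Null + EZH2), the last being null cells in which doxycycline induced an EZH2 transgene, called restored cells here. EZH2 was disrupted with CRISPR/Cas9, and the piggyBac transgene had been put into the EZH2-/+ cells before their second allele was hit, so null and restored cells share that history. Whether the transgene had been excised from the sequenced null cells is not given in the sources used here. ChIP-seq was done for H3K27me3, H3K4me3, H3K27ac, H3K4me1 and input in each genotype, and for EZH2 in WT cells alone, in 21 samples. The sample titled EZH2 lists no antibody. RNA-seq was done on 3 libraries a genotype, 12 in all.

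The number of reads behind 1 library, was about 9110000 to 15110000 for H3K27me3, 17760000 to 23780000 for input and 3430000 to 17390000 for H3K4me3, the lowest being WT. It was 93190000 for EZH2 and 25020000 to 56850000 for RNA. The ChIP figures were estimated from the steps between low values. Those steps fitted 92.1% of the low values of WT H3K4me3 and 100% in every other ChIP column, so that depth is the least sure. Levels are given in RPM, the reads of a window or gene relative to library size. EZH2 RNA, taken as a check of the labels, was at 68.6, 63.3 and 59.5 RPM in WT, 55.4, 52.3 and 45.7 RPM in Het, 11.5, 8.65 and 9.68 RPM in null and 271.2, 385.1 and 255.6 RPM in restored libraries. The null libraries lay below every other library, with a log2 difference from the restored cells of -4.91 (SE 0.17, limma adjusted p = 1.237e-08).

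PRC2, of which EZH2 is a catalytic subunit, places trimethylation on histone H3 (H3K27me3) at promoters of silent developmental genes. DUX4 encodes a homeobox transcription factor that is active briefly in the cleavage-stage embryo and is then silenced. Its open reading frame lies in each unit of D4Z4, a GC-rich macrosatellite near the end of the long arm of chromosome 4, with a close relative on chromosome 10, and loss of its silencing in muscle underlies facioscapulohumeral dystrophy. The USP17L genes encode or resemble deubiquitinating enzymes, and most of them lie in another macrosatellite on the short arm of chromosome 4.

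The members fell into 3 sets by position (GRCh38). The 8 DUX4L copies stood head to tail in chr4:190065435-190093505, spaced 3293 to 3300 bp apart. DUX4 itself had 3 windows beyond them, between chr4:190171274 and 190184617. USP17L genes numbered 20 on chromosome 4, in chr4:9208157-9365629, where neighbours within 5 kb were 4744 to 4751 bp apart. The other 6, USP17L1, USP17L4, USP17L8, USP17L3, USP17L7 and USP17L2, lay on chromosome 8. Because the spacing was less than the length of a window, neighbours shared reads. Only 4 DUX4L windows, 12 USP17L windows on chromosome 4 and 3 on chromosome 8 could be chosen without overlap, and the members are not replicates of each other.

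The 250 bases before the annotated start show how alike the copies are. Those of DUX4 and DUX4L8, read from the GRCh38 genome on the plus strand at chr4:190173524-190173773 and chr4:190067685-190067934, are printed with the run of GGCT repeats in capitals. The DUX4 bases are also those of the RefSeq promoter table, where 1 of 35 members was matched.

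DUX4: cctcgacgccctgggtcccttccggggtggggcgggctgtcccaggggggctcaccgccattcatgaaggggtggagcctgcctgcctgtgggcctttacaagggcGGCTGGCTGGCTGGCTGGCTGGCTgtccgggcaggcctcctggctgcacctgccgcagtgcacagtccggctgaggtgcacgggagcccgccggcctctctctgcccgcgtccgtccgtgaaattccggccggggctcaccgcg

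DUX4L8: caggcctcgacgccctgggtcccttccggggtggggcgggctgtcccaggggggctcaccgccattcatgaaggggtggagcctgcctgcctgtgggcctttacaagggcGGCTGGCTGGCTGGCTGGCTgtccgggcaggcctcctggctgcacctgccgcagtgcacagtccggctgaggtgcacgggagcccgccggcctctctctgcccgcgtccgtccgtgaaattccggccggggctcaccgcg

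DUX4 had 6 copies of GGCT and DUX4L8 had 5, and 4 bases absent from DUX4L8 were the only difference between them. All 8 DUX4L copies shared the DUX4L8 sequence, so the 9 genes held 2 distinct sequences. For the chromosome 4 USP17L genes, USP17L10 (chr4:9210407-9210656), USP17L11 (chr4:9215155-9215404) and USP17L24 (chr4:9324915-9325164) are shown because they stand for the copy with the most unique sequence, its neighbour and the commonest sequence. Capitals mark bases that differ from USP17L11.

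USP17L10: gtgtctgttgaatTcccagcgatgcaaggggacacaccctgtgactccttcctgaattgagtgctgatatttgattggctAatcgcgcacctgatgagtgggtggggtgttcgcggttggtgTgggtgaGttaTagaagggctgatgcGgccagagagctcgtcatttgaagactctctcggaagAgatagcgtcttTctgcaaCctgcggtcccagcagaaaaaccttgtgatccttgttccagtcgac

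USP17L11: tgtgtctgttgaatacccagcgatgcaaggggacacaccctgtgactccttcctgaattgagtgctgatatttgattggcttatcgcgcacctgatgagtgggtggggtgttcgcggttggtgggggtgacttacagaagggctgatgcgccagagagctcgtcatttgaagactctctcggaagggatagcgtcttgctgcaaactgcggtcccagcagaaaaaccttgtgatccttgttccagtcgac

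USP17L24: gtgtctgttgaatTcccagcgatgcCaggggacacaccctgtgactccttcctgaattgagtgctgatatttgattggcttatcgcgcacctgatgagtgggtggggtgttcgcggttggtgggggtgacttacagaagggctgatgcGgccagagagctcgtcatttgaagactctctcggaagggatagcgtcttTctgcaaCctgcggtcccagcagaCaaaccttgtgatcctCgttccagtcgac

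USP17L10 differed from USP17L11 by 8 substituted bases and 1 extra base, and USP17L24 by 6 substituted bases and 1 extra base. The USP17L24 sequence was found in 8 members, and the 20 genes held 10 distinct sequences. The 1500 bases after the start site of DUX4 or USP17L11 were matched to each member's window and 2 kb either side, on either strand. Such a region can hold neighbouring copies, so each identity is that of the best match there. It was 99.67% to 99.73% for the DUX4L copies against DUX4. Against USP17L11 it was 83.4% to 99.87% for the chromosome 4 USP17L genes, with a median of 99.6%. For those on chromosome 8 it was 96.33% to 96.93%. The lowest, 83.4%, was USP17L23, whose window holds 1948 bases of assembly gap.

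This likeness sets what a window value means. Of all stretches of 100 bases, the length of the reads, a median of 2.93% in the DUX4L windows and 2.99% in the chromosome 4 USP17L windows occurred once in the genome. In the HOX clusters, the developmental genes used as reference PRC2 targets, that median was 100%. Bowtie2 places a read with several equally good positions at 1 of them by chance, so values in the arrays are averages over near-identical units rather than values of single genes. The median stretch of a DUX4L window had 11 copies and 49.9% of its stretches also occurred on chromosome 10, so reads of the D4Z4 relative there enter the values. USP17L10 was the exception on chromosome 4, with 88.4% unique stretches against at most 16.2% in the other 19 windows. On chromosome 8 the share ran from 17.9% to 82.8%.

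Base composition separated the arrays. DUX4L windows had a median GC content of 72.9%, against 48.2% over all windows, and 23 of 153958 windows reached the lowest DUX4L value. Their ratio of observed to expected CpG was 0.746, against 0.366 over all windows. USP17L windows were at 49.2% GC with a ratio of 0.523 on chromosome 4 and at 46.7% with 0.437 on chromosome 8.

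H3K27me3 was at its highest in the null cells over the whole DUX4L array. DUX4L4, the copy with the most, had 12.2 RPM in WT, 14.4 in Het, 22.3 in null and 12.4 in restored cells. DUX4L1 had 12.01, 13.4, 20.7 and 12.1 RPM in the same order. At both, WT, Het and restored cells lay close together and null cells above them. At the low end DUX4L2 had 9.56, 11.4, 17.8 and 11.7 RPM. DUX4L3 had 10.8, 12.03, 18.5 and 11.9 RPM. DUX4L6 had 9.73, 12.8, 18.6 and 10.3 RPM. The lowest null value of the array, 17.8 RPM, was above the highest value of any other genotype, 14.4 RPM. Input over the same windows was 1.13 to 1.91 RPM in WT and 1.46 to 2.12 RPM in null cells.

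DUX4 had the largest RPM of any member, in both H3K27me3 and input. Its most distal window, chr4:190179617-190184617, had 71.7, 73.0, 85.1 and 60.2 RPM of H3K27me3 in WT, Het, null and restored cells, over 27.6, 26.8, 30.2 and 27.9 RPM of input. The window at chr4:190172693-190177693 had 30.8, 33.7, 49.0 and 28.6 RPM of H3K27me3 over 10.2, 10.7, 10.7 and 10.3 RPM of input. These levels stand on an input far above the 1.49 to 1.60 RPM of the median window, and the ratio to input was thus smaller than in the DUX4L copies. The first window, chr4:190171274-190176274, had 5.35, 6.32, 11.7 and 6.45 RPM of H3K27me3, and its proximal end lies in an assembly gap.

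**Figure D1:**
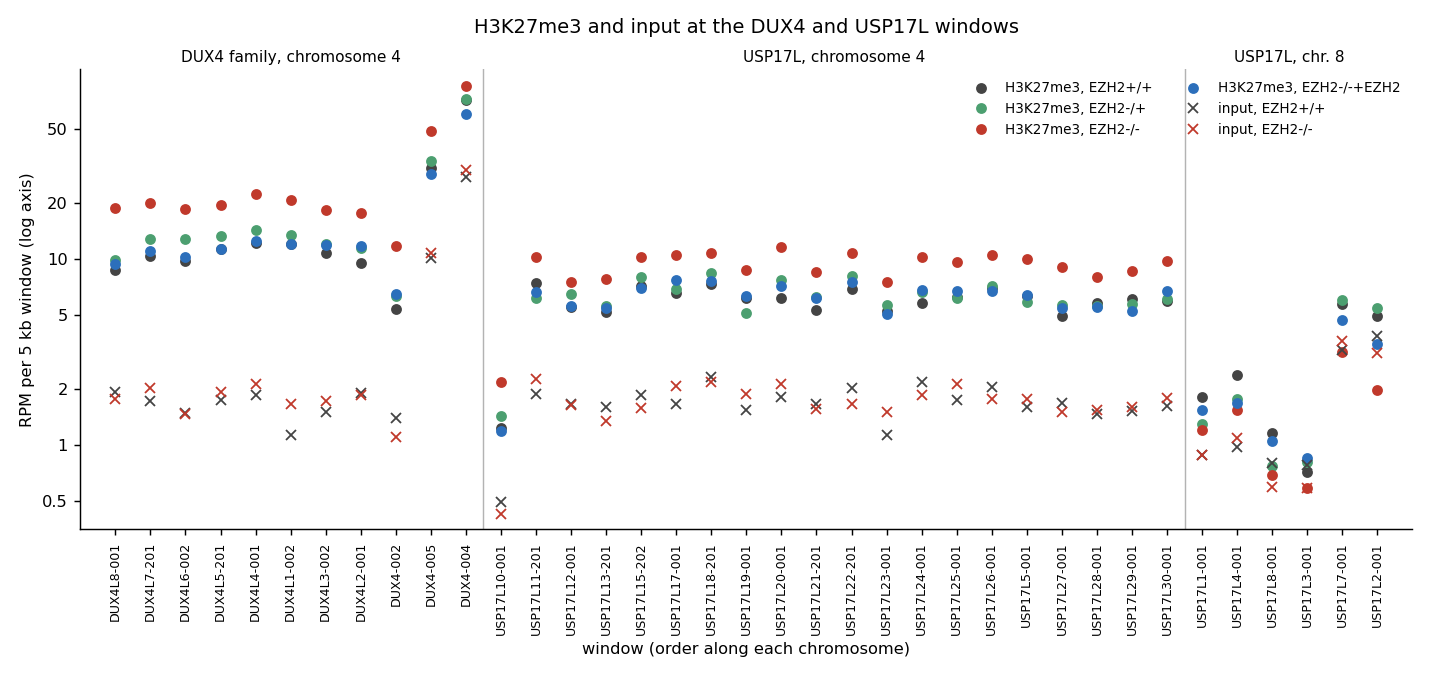
H3K27me3 (dots, 4 genotypes) and input (crosses, WT and null cells) in RPM on a log axis for each of the 37 windows, in genomic order within the sets. Null dots are the highest of the 4 in the DUX4 and chromosome 4 USP17L windows and the lowest in the chromosome 8 windows, while input crosses of the 2 genotypes lie close together.

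The chromosome 4 USP17L genes also had their highest H3K27me3 in null cells, at lower levels. USP17L20, with the most H3K27me3 in null cells, had 6.20 RPM in WT, 7.70 in Het, 11.5 in null and 7.17 in restored cells. USP17L18 had 7.34, 8.35, 10.8 and 7.58 RPM. USP17L22 had 6.85, 8.07, 10.7 and 7.55 RPM. In each of these the null value exceeded the other 3 genotypes. USP17L23, a short copy next to the break in the array, had 5.27, 5.68, 7.53 and 5.08 RPM. USP17L10, the window with mostly unique sequence, had 1.23, 1.43, 2.17 and 1.18 RPM over 0.489, 0.431, 0.421 and 0.564 RPM of input. Its RPM was thus several-fold lower than that of the other 19 windows, which had 7.53 to 11.5 RPM in null cells. Its null input was lower too, as those windows had 1.34 to 2.27 RPM. The null log2(RPM + 0.1) ratio to input was 2.12 at USP17L10, against 2.124 to 2.632 in the others. Its null value of H3K27me3 was again the highest of the 4 genotypes. That value rests on an estimated 60 reads over 15 of input, and the WT value on 22 over 23.

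The chromosome 8 genes did not share this pattern. USP17L2, a deubiquitinating enzyme and the best known member of the family, had 4.94, 5.44, 1.98 and 3.47 RPM of H3K27me3 in WT, Het, null and restored cells. USP17L7 had 5.75, 6.002, 3.15 and 4.70 RPM. Null was the lowest genotype at both, and the restored cells lay between null and WT. USP17L1 had 1.80, 1.30, 1.19 and 1.55 RPM. USP17L8 had 1.16, 0.771, 0.690 and 1.05 RPM. USP17L3 had 0.711, 0.803, 0.583 and 0.850 RPM, over 0.781 and 0.585 RPM of input in WT and null cells. Null values over the 6 windows ran from 0.583 to 3.15 RPM, against an input of 0.585 to 3.62 RPM, so little of the mark over input was left there in null cells.

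Counts of windows give the same split. H3K27me3 was higher in null than in WT cells in 31 of 37 windows, where 23.9% of all windows were. These 31 were all 11 DUX4 and DUX4L windows and all 20 chromosome 4 USP17L windows, with 0 of 6 on chromosome 8. The difference was at least 0.5 on the log2 scale in 27 windows, against 10.3% of all windows, and null exceeded restored cells in 31 windows, against 29.4% of all. Null H3K27me3 stood at least 2 above null input, on the log2(RPM + 0.1) scale used for all ratios, in 30 of 37 windows, against 0.852% of all windows. The window of DUX4 with the highest input was the member outside this limit on chromosome 4, at 1.49. USP17L2 was the only member at least 1 below WT, which 40.3% of all windows were. As these values chose the members, nothing is drawn from the counts.

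In the ranking of all 153958 windows by null H3K27me3 over input, DUX4L6 stood at 2, DUX4L1 at 3, DUX4L3 at 8, DUX4L4 at 10 and DUX4L8 at 11. The remaining DUX4L copies stood at 16 (DUX4L5), 19 (DUX4L7) and 25 (DUX4L2). In WT cells the same 8 copies had stood between 7016 and 16363. Chromosome 4 USP17L windows took ranks 174 (USP17L15) to 968 (USP17L10) in null cells, and chromosome 8 windows took ranks 11830 (USP17L4) to 63124 (USP17L2). The change of rank holds both the higher null RPM of the array windows and the lower null RPM of many others.

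Reads in windows that do not overlap give the depth behind these differences. Over 4 DUX4L windows an estimated 2158 reads of null H3K27me3 stood against 755 of WT, a log2 ratio of 0.91 after scaling to library size, and the ratio to restored cells was 0.82. Over 12 chromosome 4 USP17L windows the ratios were 0.63 and 0.57, and over 3 chromosome 8 windows the ratio to WT was -0.80. As the members were chosen on null H3K27me3, these ratios carry no interval. Input was not used in that choice, and its log2 ratio of null to WT was 0.07 (95% interval -0.17 to 0.31) over the DUX4L windows and 0.01 (-0.14 to 0.15) over the chromosome 4 USP17L windows, so no difference in input was detectable at this depth. These intervals cover counting error only, since each column holds 1 value per genotype with no separate replicates. RPM is a share of a library, so a larger signal in the array and a smaller signal elsewhere cannot be told apart. The median change over all windows was -0.71 on the same scale. Against this it was 0.87 over the DUX4 and DUX4L windows and 0.53 over the USP17L windows. The last value pools 0.60 on chromosome 4 and -0.63 on chromosome 8.

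Other gene families show where the arrays differ. The median log2 of H3K27me3 over input in the DUX4L copies was 2.64 in WT, 2.36 in Het, 3.33 in null and 2.35 in restored cells. In the chromosome 4 USP17L windows it was 1.75, 1.63, 2.37 and 1.68, and in the chromosome 8 windows 0.65, 0.32, 0.09 and 0.35. Over the 112 HOX windows it was 5.01, 5.17, 1.10 and 4.93. HOX promoters therefore had more H3K27me3 signal than either array in WT cells and less in null cells. Of the multi-copy families listed for comparison, the 31 windows of PRAMEF genes, a tandem cluster of cancer-testis antigens, stood nearest to the arrays, at 1.24 in WT and 1.79 in null cells. The medians of NBPF (0.17 and -1.21), GOLGA6 and GOLGA8 (0.64 and -0.48), DEFB (0.29 and -0.74), ZNF705 (-0.58 and -1.54) and FAM90A (-0.27 and -0.43) were lower in null than in WT cells. Repeated gene families thus differed in direction, with the 2 arrays and PRAMEF higher in null cells and these lower.

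**Figure D2:**
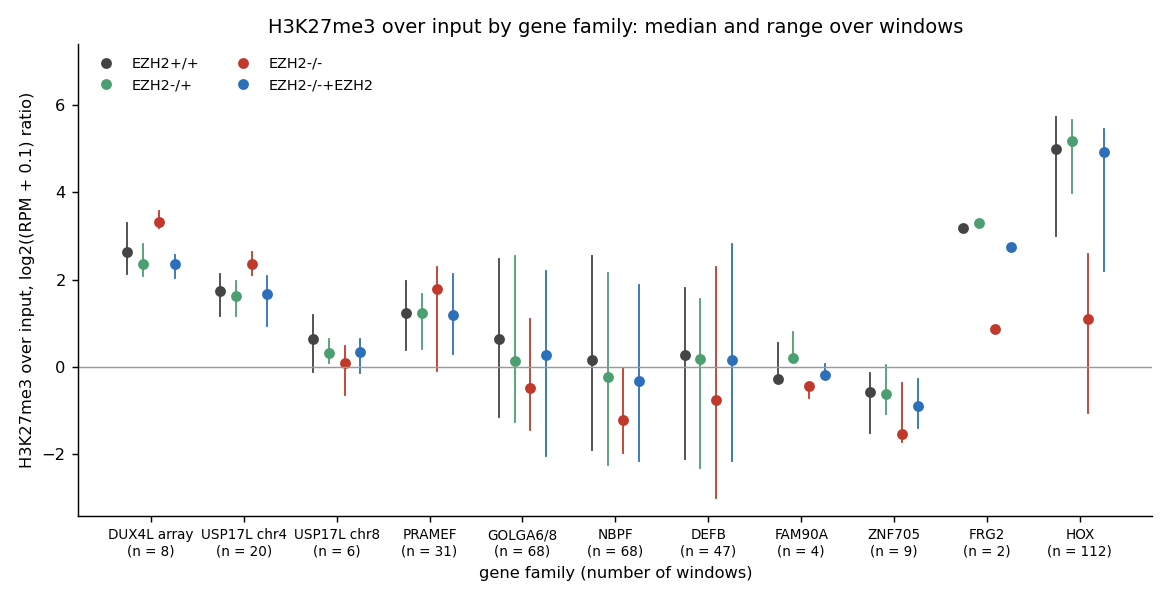
Median (point) and range (line) over windows of log2 H3K27me3 over input of the same genotype, in the members, other multi-copy families, the neighbouring gene FRG2 and HOX genes. The median of the DUX4L copies is 3.33 in null cells, the USP17L copies of chromosome 4 are at 2.37 and HOX is at 1.10.

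The genes beside D4Z4 differed from the array. FRG2, the gene just proximal to the array and itself partly shared with chromosome 10, had 14.0, 16.0, 2.64 and 11.1 RPM of H3K27me3 in WT, Het, null and restored cells. Its relative FRG2B on chromosome 10 had 12.1, 15.6, 5.33 and 10.9 RPM. Both had their lowest value in null cells, the reverse of the neighbouring DUX4L copies, although 66.9% of the stretches in the FRG2 windows also occurred on chromosome 10. SLC25A4, a mitochondrial ADP/ATP carrier further proximal, had 3.07, 2.08, 0.635 and 1.57 RPM. FRG1, which lies between them, had 3.10 to 3.13 RPM in WT and 2.23 to 2.36 RPM in null cells over its 5 windows at the promoter, and 2.31 and 2.53 RPM against 2.85 and 3.29 RPM in its 2 windows further along the gene.

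Of the other marks, the median of H3K4me3 lay above input in both arrays and those of H3K27ac and H3K4me1 below it, in all 4 genotypes. DUX4L copies had 8.30 to 10.7 RPM of H3K4me3 in WT, 5.05 to 6.78 in Het, 4.39 to 6.73 in null and 5.23 to 6.31 in restored cells. Their median log2 over input was 2.42, 1.39, 1.57 and 1.31, against 1.56, 1.80, 1.64 and 1.63 over all windows. In Het, null and restored cells it was thus below the median of all windows. Whether this signal is H3K4me3, a mark associated with promoters, or background was not tested. The WT value rests on the library estimated to be the shallowest. In the chromosome 4 USP17L windows the median log2 of H3K4me3 over input was 1.28, 0.63, 0.54 and 0.33. In null cells H3K4me3 lay above input in 31 of 37 members, against 67.7% of all windows.

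H3K27ac and H3K4me1 are found at active promoters and enhancers. The DUX4L medians of log2 H3K27ac over input were -1.06, -1.05, -1.46 and -1.02 in the 4 genotypes, and those of H3K4me1 were -0.60, -1.32, -1.18 and -1.04. The chromosome 4 USP17L medians were -0.68, -1.05, -0.53 and -0.38 for H3K27ac, and for H3K4me1 they were -0.91, -1.10, -1.15 and -1.05. The chromosome 8 genes differed, with H3K27ac medians of 0.58, 0.14, 0.64 and 0.27. In null cells H3K27ac exceeded input in 6 members, of which 5 lay on chromosome 8, against 79.5% of all windows. H3K4me1 exceeded input in 4 members, all on chromosome 8, against 75.3% of all windows. The genes of the 2 arrays thus had neither mark over input in null cells, apart from 1 USP17L window with H3K27ac.

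EZH2 in WT cells was low at the arrays when set against HOX. It was 1.65 to 1.87 RPM over the DUX4L copies and 0.118 to 0.740 RPM over the chromosome 4 USP17L windows, with medians at the 97.6 and 79.3 percentiles of all windows. The HOX median was 6.92 RPM and the median of all windows 0.301 RPM. Relative to WT input, EZH2 was above 0 in 5 members, all of them DUX4L copies, against 4.86% of all windows. The DUX4L median of log2 EZH2 over input was 0.06, the chromosome 4 USP17L median -1.40 and the HOX median 2.38. The median over all windows was -1.95. The DUX4L copies therefore had EZH2 at about the level of input, above the median of all windows and below that of HOX. The EZH2 library was prepared from crosslinked chromatin while the input came with the native histone ChIP, as far as the sources used here say.

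**Figure D3:**
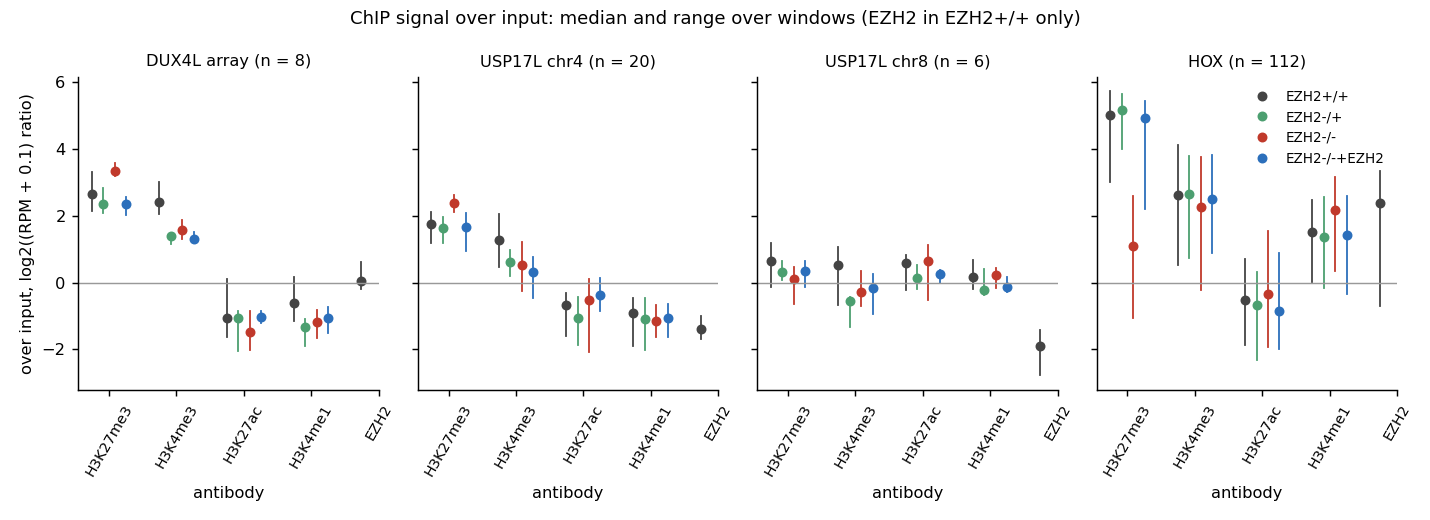
Median (point) and range (line) over windows of log2 over input for H3K27me3, H3K4me3, H3K27ac and H3K4me1 by genotype, and EZH2 in WT cells, in the DUX4L copies, the USP17L windows of chromosome 4 and of chromosome 8, and HOX windows. Null H3K27me3 is at 3.33 in the DUX4L copies and at 1.10 in HOX, and the H3K27ac medians are below 0 in both arrays.

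RNA from the members was at or near 0 in every genotype. The 8 DUX4L copies and all 20 USP17L genes of chromosome 4 had 0 reads in the 12 libraries. DUX4 had 3 reads in all, 2 in WT library 1 and 1 in restored library 2, and thus 0 in the 3 null libraries. A count of 0 allows up to 3 reads, which is 0.0528 to 0.1199 RPM in these libraries.

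The 6 genes of chromosome 8 had 55 reads between them. USP17L2, with the most, had 3, 2 and 1 reads in WT, 4, 0 and 0 in Het, 5, 5 and 0 in null and 7, 4 and 0 in restored libraries. USP17L7 had 2, 1 and 0 reads in WT, 0, 1 and 0 in Het, 11, 0 and 0 in null and 1, 4 and 0 in restored libraries. The groups overlapped at both genes, and 11 of the 20 USP17L7 reads came from 1 null library. USP17L3 had 3 reads and USP17L8 had 1, while USP17L1 and USP17L4 had 0. The models of USP17L3 and USP17L8 overlap and the counting ignored strand, so their reads cannot be told apart.

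None of the 35 members reached a mean of 0.1 RPM, so 0 of 35 entered the test, in which 2.63% of 20608 genes were higher and 0.524% lower in null than in restored cells. Without this filter 0 of 35 were called by limma in any comparison and 0 had an unadjusted p under 0.05. That count was largely fixed beforehand. The 8 DUX4L copies, the 20 chromosome 4 USP17L genes, USP17L1 and USP17L4 had 0 reads in all 12 libraries and could not be called. Of all genes without the filter, 0.958% were higher in null than in restored cells, and this share was not taken for the other comparisons. Summed over the DUX4 family, the mean log2(RPM + 0.1) was -3.32 in null and -3.21 in restored libraries, a difference of -0.11. The only read of this family in these libraries was in restored library 2. Every arrangement then gives the same size of difference, so the two-sided exact permutation p = 1 was fixed beforehand and decides nothing. For the USP17L family the mean was -2.34 and -2.19, a difference of -0.14 (two-sided exact permutation p = 1, n = 3 and 3, for which the smallest p is 0.1). A change in the RNA of these genes was not detectable at this depth, and reads that fit several copies may not have been counted, since their handling is not given in the sources used here. In bulk RNA, fewer cells of a type and less RNA per cell cannot be told apart.

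Genes that DUX4 is known to switch on were examined next. Of 36 listed targets, 33 were in the table and 8 passed the filter. ZSCAN4, LEUTX, TRIM43 and DUXA, cleavage-stage genes that respond strongly to DUX4, had 0 reads in all 12 libraries. In null relative to restored cells 2 of 8 were higher and 0 lower, where 2.63% of all genes tested were higher, and the median log2 difference was 0.72 against 0.02 over all genes tested. The filter bears on these figures, since RFPL2 passed it through its null libraries. Without the filter 2 of 33 targets were higher, where 0.958% of all genes were, and the median log2 difference was 0. Median-ratio scaling also gave 2 higher and 0 lower, where 2.57% and 0.529% of all genes were.

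The pair that rose were DPPA3 and RFPL2. DPPA3 (STELLA), a maternal factor also expressed in germ cells, had 0.0888, 0 and 0.131 RPM in WT, 0.661, 0.7995 and 0.391 in Het, 4.36, 8.504 and 13.9 in null and 0.669, 1.21 and 0.680 in restored libraries. All null libraries lay above all others. The log2 difference of null from restored cells was 3.14 (SE 0.45, limma adjusted p = 0.003524), and that of null from WT was 5.64 (SE 0.45, limma adjusted p = 9.425e-06). DPPA3 also passed the test between Het and WT cells, at 2.09 (limma adjusted p = 0.0447, where 0.180% of all genes were higher and 0.966% lower), and between restored and WT cells, at 2.495 (limma adjusted p = 0.005014, where 3.40% were higher and 6.90% lower).

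RFPL2, a ret finger protein-like gene, had 0.0222, 0 and 0 RPM in WT, 0, 0.0648 and 0.0356 in Het, 0.545, 0.864 and 1.25 in null and 0.129, 0 and 0 in restored libraries. Null libraries again stood apart, with a log2 difference of 2.84 (SE 0.40, limma adjusted p = 0.0034) from restored cells and of 3.14 (limma adjusted p = 0.0001866) from WT. As RFPL2 passed the filter only through its null libraries, these p-values carry that limit. RFPL2 is itself a gene that carried H3K27me3 in WT cells. The mark at its 2 most marked windows was 18.7 and 15.9 RPM in WT, 17.2 and 14.5 in Het, 0.741 and 0.631 in null and 21.9 and 19.1 in restored cells. At DPPA3 it was 1.06, 1.40, 0.938 and 1.51 RPM.

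With the library number as a block, 4 of the 8 targets rose in null relative to restored cells, where 6.19% of all genes did, the added genes being HSPA1A, a stress-induced chaperone, and SLC34A2, a phosphate transporter. HSPA1A had 31.1, 44.9 and 62.5 RPM in null and 26.95, 27.3 and 17.3 RPM in restored libraries, a log2 difference of 0.92 (limma adjusted p = 0.04846 with the block and 0.09474 without). SLC34A2 had 1.09, 2.31 and 0.861 RPM in null and 0.283, 0.241 and 0.1199 RPM in restored libraries (limma adjusted p = 0.006688 with the block and 0.08031 without). In WT libraries SLC34A2 was at 1.13, 0.989 and 0.3496 RPM, the last of these below the range of the null libraries and the others within it. The smallest differences of the list were RFPL1 at 0.07, RBP7 at 0.37 and CCNA1 at 0.43, which did not pass. Relative to WT, 3 of 8 targets were higher in null cells (DPPA3, RFPL2 and HSPA1A), where 12.6% of all genes were. With the block 4 were, where 17.3% of all genes were.

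**Figure D4:**
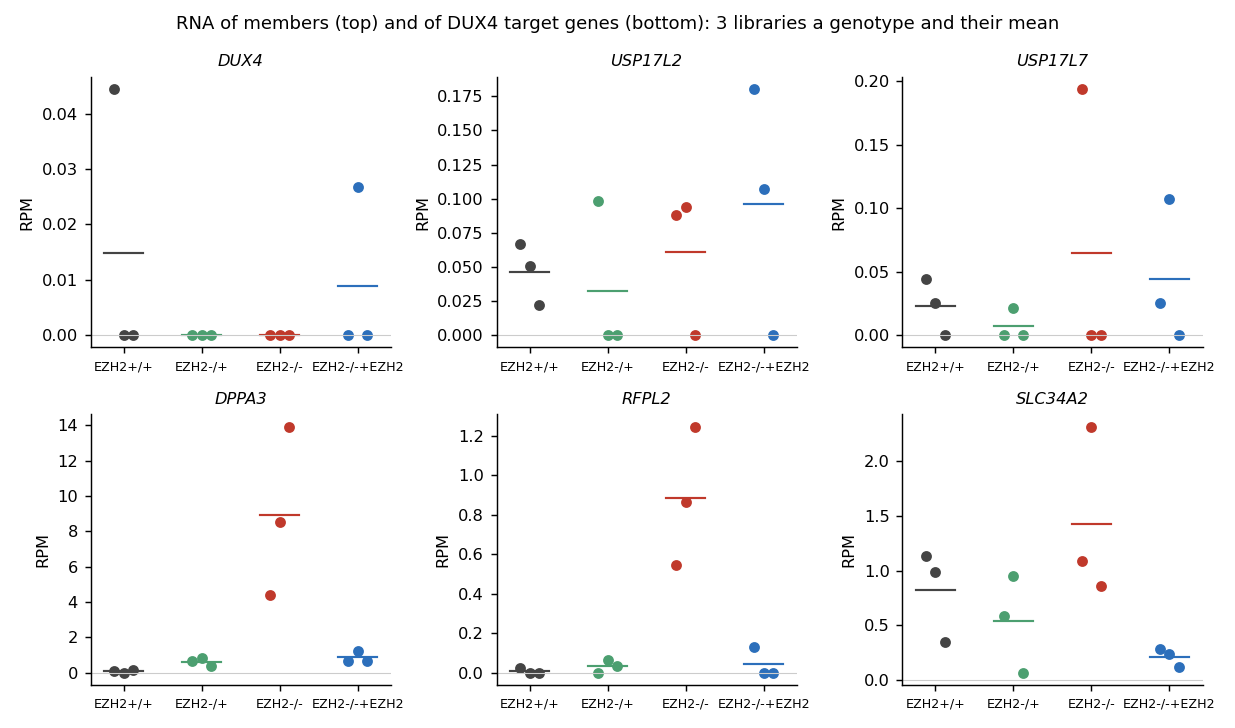
RNA in RPM for DUX4, USP17L2, USP17L7 and the DUX4 target genes DPPA3, RFPL2 and SLC34A2, with a point for each of the 3 libraries a genotype and a line at their mean. Null libraries of DPPA3 (4.36 to 13.9 RPM) and RFPL2 (0.545 to 1.25 RPM) lie above all others, and the members stay near 0.

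Summed markers of other cell types are given beside these genes, without a test. The 6 endoderm markers summed to 176 to 486 RPM in null and 26.8 to 98.3 RPM in restored libraries, and the 7 mesoderm and mesenchyme markers to 60.5 to 302 RPM and 33.9 to 66.4 RPM. The 10 pluripotency markers summed to 3637 to 4092 RPM and 3531 to 4096 RPM in the same libraries, all 10 with reads. The 4 trophectoderm and amnion markers summed to 4.98 to 10.3 RPM and 2.52 to 3.36 RPM, and the 4 neuroectoderm markers to 1.99 to 2.82 RPM and 1.47 to 2.33 RPM. WT and Het sums follow in the order pluripotency, endoderm, mesoderm and mesenchyme, trophectoderm and amnion, neuroectoderm. In WT they were 2489 to 3086, 20.9 to 57.7, 62.0 to 118.1, 3.855 to 9.369 and 8.11 to 19.9 RPM. In Het they were 3321 to 3971, 11.8 to 459.6, 26.1 to 67.8, 3.80 to 10.35 and 3.28 to 5.59 RPM. The 3 germ cell markers, DPPA3 among them, summed to 4.79 to 14.1 RPM in null and 2.34 to 3.03 RPM in restored libraries. DAZL of that list stood the other way, at 0.422, 0.131 and 0.119 RPM in null and 1.67, 1.82 and 1.84 RPM in restored libraries, and DDX4 was at 0 in all restored and 2 of 3 null libraries. Their part in the DPPA3 and RFPL2 results was not tested.

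Factors known to act on the silencing of D4Z4 or cleavage-stage genes were examined in the same way. Of 32 listed regulators, 32 had RNA above the filter and 0 passed between null and restored cells by limma. Of all genes tested, 2.63% were higher and 0.524% lower, so this count is no result about these factors. There was 1 at an unadjusted p under 0.05, and the median log2 difference was -0.05. The largest differences were in DPPA2 at 0.74, SUV39H1 at 0.37 and TRIM28 at 0.31 in the higher direction and in CHAF1B at -0.46, SMCHD1 at -0.34 and ZNF217 at -0.33 in the lower. With the block 1 was lower, CHAF1B, a subunit of the chromatin assembly factor (limma adjusted p = 0.04718), where 3.21% of all genes were.

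SMCHD1, the D4Z4 silencer in which variants cause a form of facioscapulohumeral dystrophy, had 43.0, 32.6 and 21.1 RPM in null and 44.5, 51.6 and 26.1 RPM in restored libraries, ranges that overlap although null was the lower of the 2 at each library number. With the block SMCHD1 did not pass against restored cells (log2 difference -0.34, limma adjusted p = 0.1292) but was lower than in WT (-0.45, limma adjusted p = 0.01518, against 0.3095 without the block). Relative to WT, null cells had 3 regulators higher, where 12.6% of all genes were, and 6 lower, where 18.8% were. The higher ones were DPPA2 at 2.32 and DPPA4 at 0.65, a pair of chromatin factors of pluripotent cells, and the H3K9 methyltransferase SUV39H1 at 0.85. The lower ones were ZMYM2 at -0.75, CHAF1B at -0.63, ZNF217 at -0.59, SETDB1 at -0.49, MTA1 at -0.39 and KDM1A at -0.37. These calls depended on scaling, since the median of all genes lay at -0.13 in RPM and at -0.01 after median-ratio scaling, under which 5 were higher and 1, CHAF1B, lower (16.4% and 13.7% of all genes). With the block 7 were higher and 8 lower, where 17.3% and 28.0% of all genes were.

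Of the genes neighbouring D4Z4, FRG1, a splicing-associated gene, had 15.2 to 18.7 RPM in null and 15.2 to 24.0 RPM in restored libraries. FRG2 had 0.0528, 0.0188 and 0 RPM in null and 0, 0.0268 and 0 RPM in restored libraries, at or under 3 reads in each. Of the 3 neighbours tested, 0 passed between null and restored cells by limma, with 0 at an unadjusted p under 0.05. Of all genes tested, 2.63% were higher and 0.524% lower. FAT1, a protocadherin gene further proximal, had 157.2, 116.6 and 67.2 RPM in null and 204.1, 157.1 and 83.9 RPM in restored libraries, a log2 difference of -0.38 (limma adjusted p = 0.6775). With the block FAT1 fell in null relative to restored cells (limma adjusted p = 0.02822) and relative to WT (limma adjusted p = 0.000176). SLC25A4 rose in null relative to WT cells by 0.50 on the log2 scale (SE 0.15, limma adjusted p = 0.02217).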

How the data were processed

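The data were 21 ChIP-seq and 12 RNA-seq samples of H9 ESCs, grouped by the genotype in the labels. Members, lists and tests were chosen with earlier results of these data known. The authors trimmed reads (Trim Galore 0.4.0), aligned them to GRCh38 (Bowtie2 2.2.5, default settings, for ChIP, and TopHat2 2.0.12 for RNA), counted them in SeqMonk and deposited log2 RPM, without strand for RNA. Low ChIP values step as averages of 2 libraries in log2 units for histone marks and input, and as 1 library for EZH2. The paper describes averages of 3 biological replicates, a difference that was not resolved and on which the estimated ChIP reads depend. A gene without a read was listed at 0.9 of 1 read and set to 0 here, and 100% of the low RNA values were whole multiples of 1 read (within 0.1%). Values were returned to RPM, and differences are on log2(RPM + 0.1), which understates the change of low genes.

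RNA was tested with limma 3.58.1 in R 4.3.3 on all 12 libraries, for 20608 genes averaging 0.1 RPM or more. Adjusted p-values (Benjamini-Hochberg, all tested genes) under 0.05 were called. The paper calls the 3 RNA libraries of a genotype biological replicates, and the labels do not say whether they came from separate cultures. Library numbers recur in each genotype, and all 18 pairs with the same number deviated together (r 0.11 to 0.56). Other pairs ran from -0.49 to 0.24, so the ranges overlap. Their mean of -0.16 is largely set by the centring of values within each genotype. Another fit with the number as a block was also made. Copies of 100-base stretches and identities came from the GRCh38 reference (Python 3.11.15). Named with values are DUX4, USP17L2, the members of each family with the most RNA and with the 3 highest and 3 lowest null H3K27me3 values, and listed genes that passed in null cells or had the 3 largest or smallest differences. USP17L10 and USP17L15, and the windows of DPPA3 and RFPL2, were added after their values were seen.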

Additional observations from a re-analysis of the deposited data

How the results depend on the processing

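Of the values computed under alternative settings, 99 kept their direction and a like count of calls, or moved by less than their error. Another 3 moved by more, 3 changed sign, 2 gave more calls and 1 gave fewer. Many of the 99 could not have changed. No member entered the RNA test under most settings, and no member windows were exact duplicates. Each window's change was also centred on the median change over all windows. By construction, null minus WT H3K27me3 was then 1.57 over DUX4 windows and 1.24 over the USP17L windows of both chromosomes pooled. With a pseudocount of 1 RPM, the median null H3K27me3 over input of the members was 1.91, against 2.38. With a mean of at least 1 RPM, 1 DUX4 target was higher in null than in restored cells, since 4 were tested. With the replicate block, 4 DUX4 targets and 1 regulator passed, and no member was called. Leaving out 1 library gave 2 to 3 targets and a DUX4 sum difference of -0.17 to 0. The USP17L sum difference ran from -0.71 to 0.35 and changed sign without restored library 1 (0.10), restored library 2 (0.18) or null library 3 (0.35), for which the cause was not tested. ChIP columns hold 1 value a genotype, so no window has a replicate error, and at the depth of the RNA libraries a member below 3 reads is not told from 0.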
